A study of Mus musculus with 4 samples.

Results

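The genes described are 10 genes of the actin cytoskeleton in EO771 mouse mammary tumour cells: the transcription factor gene Srf, the actin genes Actb, Actg1 and Acta2, the tropomyosin genes Tpm1 and Tpm2, the vinculin gene Vcl, and the contractile smooth muscle genes Tagln, Cnn1 and Myl9. They were taken by gene symbol, 10 of the 56350 genes in the deposited count table. All 10 are in the table, and 7 had enough counts to be tested. EO771 is a cell line from the mammary gland of C57BL/6 mice. The untreated group (2 libraries) is described in the labels both as untreated and as having received vehicle. Its library titles read WT, which those of the other group do not, and its time is given as 48 h. The other group (2 libraries) received BML-210, a small-molecule inhibitor of histone deacetylases, at 1.0 µM for 48 h. The cells of both groups grew in the same serum-containing medium, and no label says that the 2 libraries of a group came from separate cultures, so p-values measure the spread between these libraries, which may be technical. The library codes in the labels start with D for untreated and V for BML-210, letters that could be read the opposite way. Every direction below rests on the treatment labels and would turn if they were crossed.

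Serum response factor (SRF) binds a short DNA element, the CArG box, in the promoters of actin and contractile genes. Its partners of the MRTF family are held in the cytoplasm by monomeric actin and enter the nucleus when actin polymerises, so the actin genes are part of a feedback loop. A separate set of partners, the ternary complex factors, answers to ERK signalling and drives immediate early genes. Cytoplasmic beta- and gamma-actin form the filaments of nearly all cells, whereas alpha smooth muscle actin (Acta2), transgelin, calponin 1 and the light chain Myl9 mark smooth muscle, myoepithelial cells and myofibroblasts.

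The CArG boxes of these genes are shown because they are the element that SRF binds. RefSeq promoter windows (GRCm38.p6, 250 bases before to 50 after a start site, both strands searched) were found for 8 of the 10 genes, all but Actb and Tagln. A full CArG box, 2 C, 6 of A or T, 2 G, was in 4 of these 8 windows, those of Srf, Actg1, Myl9 and Vcl, against 1.63% of 32817 windows. The genes were chosen as SRF targets and contractile genes, so comparisons with all windows describe that choice and are no test of enrichment. Each stretch below holds the boxes in capitals with 20 bases on either side, read 5′ to 3′ along the gene.

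Srf, chr17:46556195-46556264, minus strand: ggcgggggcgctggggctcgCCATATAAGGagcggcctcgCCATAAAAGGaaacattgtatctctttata
Actg1, chr11:120348556-120348605, minus strand: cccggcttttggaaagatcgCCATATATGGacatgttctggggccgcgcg
Myl9, chr2:156775283-156775332, plus strand: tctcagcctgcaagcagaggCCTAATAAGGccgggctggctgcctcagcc
Vcl, chr14:20929151-20929200, plus strand: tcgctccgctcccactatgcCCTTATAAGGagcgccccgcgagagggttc

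Srf had 2 boxes, which begin 82 and 62 bases before its start site. The single boxes of Actg1, Myl9 and Vcl began 90, 161 and 227 bases before theirs. The Acta2 window (minus strand) held no full box and 2 elements that are 1 mismatch away, which begin 84 and 34 bases before its RefSeq start, a start that lies 217 bases inside the deposited gene model. In these the capitals match the pattern and the small letter is the mismatch.

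Acta2, chr19:34255448-34255457: CCcTATATGG
Acta2, chr19:34255398-34255407: CCTTgTTTGG

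Elements with at most 1 mismatch were in 6 of the 8 windows, against 21.1% of all windows. The Tpm1 window held no full box and 2 elements that are 1 mismatch away, and the Tpm2 window held neither. As for Acta2, the RefSeq starts of Tpm1 and Tpm2 lie 193 and 211 bases inside the deposited gene models. The GC box GGGCGG was in 6 of 8 (35.6% of all windows), the E-box CANNTG in 6 of 8 (72.3%) and the TATA box TATAAA in 1 of 8, that of Srf (13.6%). None of the GC box, E-box or TATA box matches in these 8 windows overlapped a full CArG box. Among tested genes with a full box, Srf was higher and Actg1 and Vcl were lower in the libraries labelled BML-210, as described next.

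These genes did not move together. Acta2, Srf and Actb rose and Actg1, Vcl, Tpm2 and Tpm1 fell in the libraries labelled BML-210, while Tagln, Cnn1 and Myl9 were near the limit of detection in every library. With edgeR's quasi-likelihood test and a threshold of 0.05 on the adjusted p, 3 of the 7 tested genes were higher and 4 lower, where 46.4% of the 14455 tested genes passed, 22.9% higher and 23.5% lower. Of the 5801 genes at or above the mean level of the least abundant of the 7, 64.8% passed. The groups did not overlap for any of the 7, a separation seen for 71.3% of tested genes (35.2% with BML-210 above and 36.1% below). The median log2 fold change of all tested genes was -0.0025. The absolute change exceeded that of 93.6% of tested genes for Acta2, 80.0% for Tpm2, 74.85% for Actg1 and 73.0% for Vcl. For Srf, Actb and Tpm1 it exceeded that of only 47.8%, 42.9% and 31.7%. In bulk RNA, fewer cells of a type and less RNA per cell cannot be told apart.

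**Figure D1:**
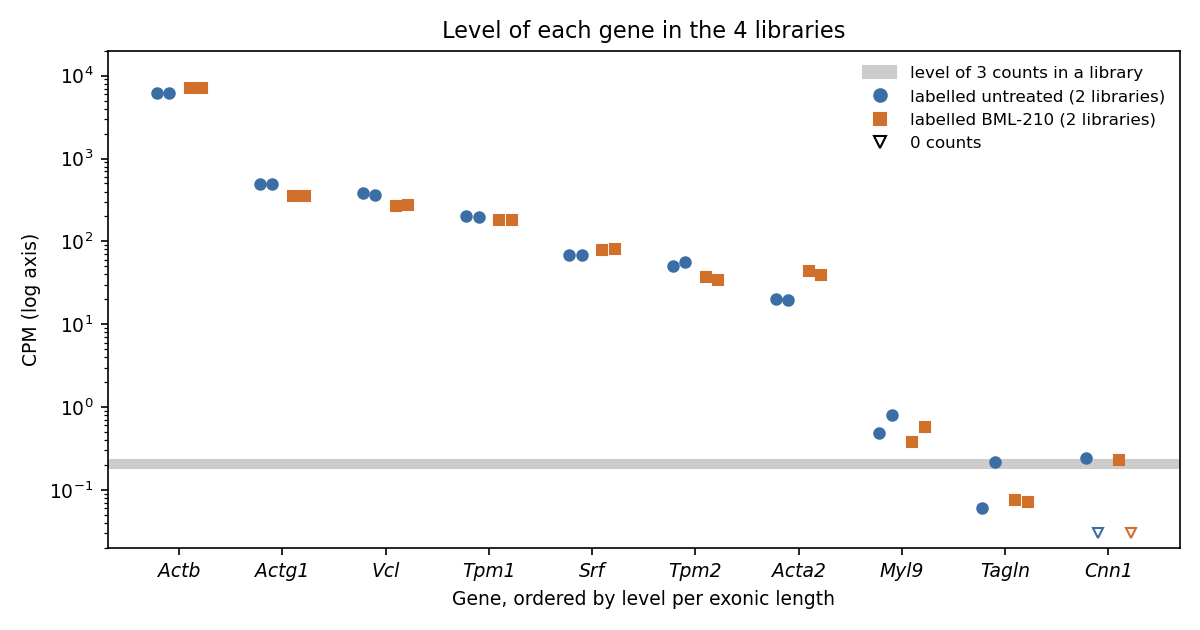
Level of each gene in CPM (counts scaled to library size, log axis) in the 2 libraries labelled untreated (circles) and the 2 labelled BML-210 (squares), with 0 counts drawn as open triangles and the level of 3 counts as a grey band. Actb stands above all others, and Tagln and Cnn1 lie near or below the band or at 0, whereas the groups of the 7 genes to the left do not overlap.

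Srf (ENSMUSG00000015605.6, chromosome 17, 46548329 to 46556175, mm10) encodes the factor itself. Its level, in CPM, was 68.5 and 67.7 in the libraries labelled untreated and 78.8 and 82.0 in those labelled BML-210. Both of the latter were above both of the former. The log2 fold change was 0.24 ± 0.05 (SE, n = 2 per group; edgeR adjusted p = 0.000176), an increase of 18.1%. This is below the median absolute log2 fold change of 0.41 among all genes that passed.

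Of the 3 tested actin genes, Acta2 (ENSMUSG00000035783.9, chromosome 19, 34241090 to 34255590) had the largest fold change. It was at 19.96 and 19.7 CPM in the libraries labelled untreated and at 43.7 and 39.6 CPM in those labelled BML-210. The groups were far apart, with a log2 fold change of 1.07 ± 0.09 (SE, n = 2 per group; edgeR adjusted p = 2.46e-16). Its absolute change exceeded that of 93.6% of tested genes. Beta-actin (Actb, ENSMUSG00000029580.14, chromosome 5, 142903115 to 142906754), often used as a reference gene, was at 6120 and 6266 CPM untreated and at 7154 and 7168 CPM with BML-210. It rose by 0.21 ± 0.03 on the log2 scale (SE; edgeR adjusted p = 2.04e-09), or 15.6%. Gamma-actin (Actg1, ENSMUSG00000062825.15, chromosome 11, 120345690 to 120348542) went the other way, from 498.2 and 487.5 CPM to 352.7 and 351.5 CPM. It fell by 0.49 ± 0.03 on the log2 scale (SE; edgeR adjusted p = 8.69e-21), so the 2 cytoplasmic actin genes had opposite directions.

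Ratios of counts within a library do not depend on how libraries are scaled. There were 12.3 and 12.9 Actb counts per Actg1 count in the libraries labelled untreated and 20.3 and 20.4 in those labelled BML-210. Actg1 counts per Acta2 count went from 25.0 and 24.7 to 8.07 and 8.88. Neither ratio could overlap between the groups, since its 2 genes were already apart in opposite directions, so the ratios add no separate support. An exact permutation test of 2 against 2 libraries cannot give a p below 0.333. Per exonic length (RPKM, CPM per kilobase of exon), Actb made up 92.1% and 92.4% of the summed level of the 6 actin genes in the libraries labelled untreated and 94.6% and 94.7% in those labelled BML-210. The share of Actg1 went from 7.55% and 7.24% to 4.70% and 4.68%, and that of Acta2 from 0.366% and 0.355% to 0.704% and 0.638%. The sum over the 6 genes went from 2481 and 2532 to 2824 and 2827 RPKM. The remaining muscle actins were scarcely detected: Acta1 stayed at or below 0.345 RPKM, and Actg2, the enteric smooth muscle actin, had 0 and 6 counts against 11 and 10. Windows of 100 bases, the read length, shared with transcripts of other genes made up 29.9% of the Actg1 windows, nearly all in pseudogenes, and 0.644% of the Actb windows. When Actg1 was summed with its 6 annotated pseudogenes, an alternative chosen after the data were seen, its log2 fold change was -0.48 (edgeR adjusted p = 3.92e-21). The largest of them, Gm12715, had 238 and 210 counts untreated and 152 and 146 with BML-210. Actg1 itself had 8186 and 6693 against 4659 and 4926. The sum could therefore change the estimate little, and it does not restore reads that counting may have dropped.

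**Figure D2:**
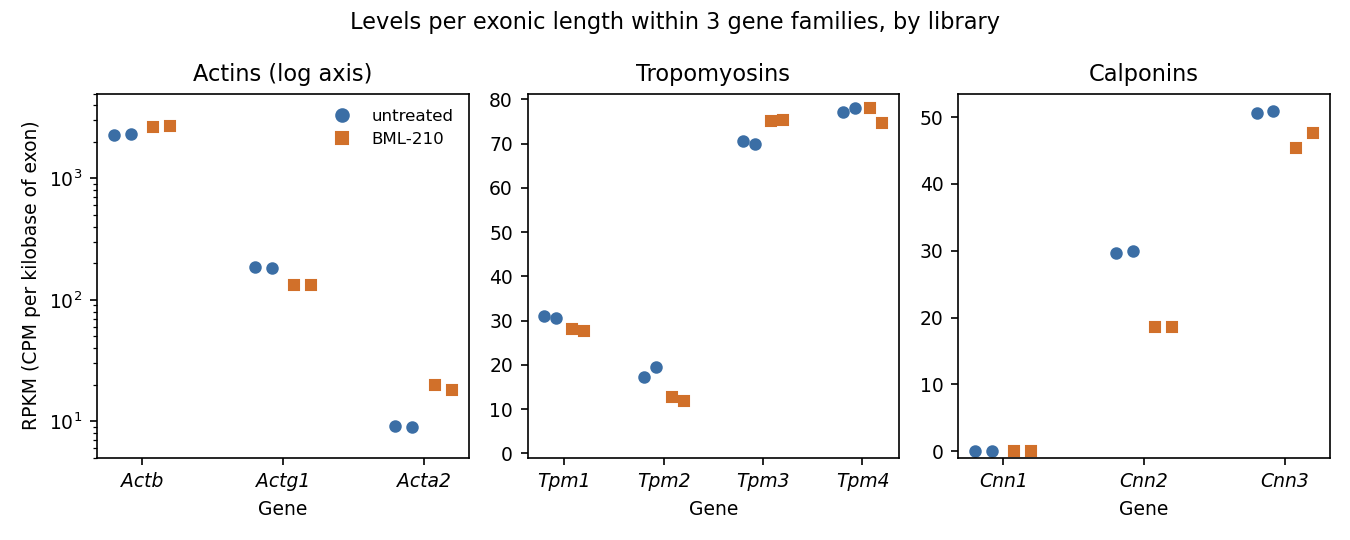
Level per exonic length (RPKM) of actin, tropomyosin and calponin genes in each library, circles for untreated and squares for BML-210, with a log axis for the actins. Actb and Acta2 are higher and Actg1 lower in the squares, Tpm1 and Tpm2 are lower while Tpm3 and Tpm4 lie within 69.8 to 78.0 RPKM, and Cnn2 drops beside a Cnn1 near 0.

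Tropomyosins are coiled-coil proteins that lie along actin filaments and set which myosins and severing factors can bind. Tpm2 (ENSMUSG00000028464.16, chromosome 4, 43514711 to 43523765) was at 50.4 and 56.8 CPM in the libraries labelled untreated and at 37.4 and 34.5 CPM in those labelled BML-210. The groups were apart, with a log2 fold change of -0.57 ± 0.07 (SE, n = 2 per group; edgeR adjusted p = 5.41e-10). Tpm1 (ENSMUSG00000032366.15, chromosome 9, 67022590 to 67049406) went from 201.5 and 198.3 CPM to 181.8 and 179.0 CPM. Its change was small, -0.15 ± 0.04 on the log2 scale (SE; edgeR adjusted p = 0.000849). The other 2 family members did not follow. Tpm3 was higher by 0.10 (edgeR adjusted p = 0.00494), but did not pass with upper-quartile scaling or without either library labelled BML-210. Tpm4 did not pass, at -0.02 with a 95% interval of -0.09 to 0.04. Per exonic length the 4 genes summed to 196 and 198 RPKM untreated and to 194 and 189.6 RPKM with BML-210. The share of Tpm2 went from 8.83% and 9.87% of that sum to 6.63% and 6.25%, and that of Tpm3 from 36.01% and 35.3% to 38.7% and 39.8%. Gene counts cannot show which tropomyosin splice forms changed.

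Vinculin links actin filaments to talin at focal adhesions and to catenins at cell junctions. Vcl (ENSMUSG00000021823.10, chromosome 14, 20929398 to 21033676) was at 379 and 368 CPM in the libraries labelled untreated and at 271 and 272 CPM in those labelled BML-210. Both treated values were below both untreated ones, with a log2 fold change of -0.46 ± 0.03 (SE, n = 2 per group; edgeR adjusted p = 1.69e-18). Of its exonic bases, 25.5% overlap exons of Ap3m1 on the opposite strand, and no source used here says whether strand was used in counting. Ap3m1 was at 110.6 and 112.0 CPM untreated and at 105.0 and 99.3 CPM with BML-210. It also passed as lower, with a log2 fold change of -0.12 (edgeR adjusted p = 0.0261), and its part in the Vcl count was not tested.

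**Figure D3:**
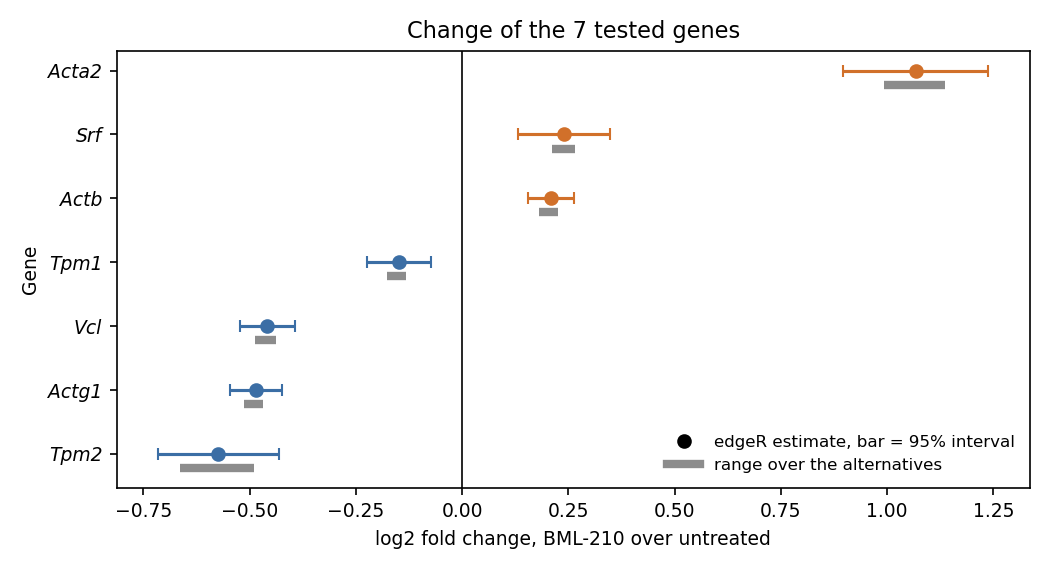
Log2 fold change of the 7 tested genes (points, edgeR) with 95% intervals (bars) and the range over the processing alternatives (grey). Acta2 stands at 1.07, Srf and Actb lie near each other at 0.24 and 0.21, and the other 4 genes lie between -0.57 and -0.15, with no interval or range that reaches 0.

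Calponin 1, transgelin and Myl9, the markers of a contractile smooth muscle programme, were close to absent. Cnn1 (ENSMUSG00000001349.5, chromosome 9, 22099216 to 22109630) had 4 and 0 counts in the libraries labelled untreated and 3 and 0 in those labelled BML-210. Tagln (ENSMUSG00000032085.5, chromosome 9, 45929619 to 45936058) had 1 and 3 counts against 1 and 1, and 67.9% of its exonic bases overlap exons of Pcsk7 or Gm48529 on the opposite strand. The use of strand in counting is not given here either. The part of this overlap in the low Tagln count was not tested. Myl9 (ENSMUSG00000067818.6, chromosome 2, 156775420 to 156781658), a regulatory light chain of smooth muscle and non-muscle myosin II, had 8 and 11 counts against 5 and 8. The floor of 3 counts, which covers counting error only, lay between 0.183 and 0.227 CPM depending on the library. The groups overlapped for each of these 3 genes, and a difference was not detectable at this depth. With no filter on low counts, the 95% intervals of the log2 fold change were -3.78 to 2.20 for Tagln, -2.90 to 2.46 for Cnn1 and -1.61 to 0.81 for Myl9 (edgeR adjusted p = 0.78, 0.96 and 0.698).

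Their paralogs of non-muscle cells were expressed. Cnn2, a calponin of non-muscle cells, was at 29.7 and 29.9 RPKM in the libraries labelled untreated and at 18.6 in each of those labelled BML-210, and it fell by 0.68 on the log2 scale (adjusted p = 7.16e-15 in edgeR). Cnn3 went from 50.6 and 51.0 to 45.4 and 47.7 RPKM (-0.13, edgeR adjusted p = 0.0103), a call that ended without BML-210 replicate 1 and with DESeq2 (highest adjusted p 0.185, lowest 0.00148 over 15 alternatives). Tagln2 fell by 0.18 on the log2 scale, from 87.8 and 90.1 to 78.3 and 78.7 RPKM (edgeR adjusted p = 1e-04). Myl12a, a non-muscle regulatory light chain gene, stood at 42.4 to 45.1 RPKM in the 4 libraries and did not pass (edgeR adjusted p = 0.213), while Myl9 was 0.326 to 0.69 RPKM. Reads of near-identical paralogs such as Myl12a and Myl12b may have been shared between them, since the treatment of multi-mapping reads is not given.

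By level per exonic length, the order in the libraries labelled untreated was Actb (mean 2312 RPKM), Actg1 (185), Vcl (45.6), Tpm1 (30.8), Srf (23.5), Tpm2 (18.4), Acta2 (9.04) and Myl9 (0.554), followed by Tagln and Cnn1, which overlapped. In the libraries labelled BML-210 the means were 2673 for Actb, 132 for Actg1, 33.2 for Vcl, 27.8 for Tpm1 and 27.8 for Srf, and 19.0 for Acta2, 12.4 for Tpm2 and 0.408 RPKM for Myl9. Tpm1 (28.04 and 27.6 RPKM) and Srf (27.2 and 28.3 RPKM) overlapped there, and Acta2 stood above Tpm2 in both libraries, the reverse of the untreated order. Among tested genes Actb ranked 12 by mean RPKM, Actg1 175 and Acta2 3375.

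SRF acts with cofactors. Of 7 tested cofactor and ternary complex factor genes, 3 were higher, 1 was lower and 3 did not pass (median -0.04), a split of 2 higher and 2 lower with upper-quartile scaling. The share called, 57.1%, lies between the 46.4% of all tested genes and the 64.8% of the more abundant ones. The ternary complex factor genes Elk3 (0.23, from 69.2 and 65.5 to 78.3 and 80.4 CPM; edgeR adjusted p = 0.000274) and Elk4 (0.17, edgeR adjusted p = 0.000855) rose, whereas Elk1, the third of them, did not pass (-0.06, edgeR adjusted p = 0.702). Fhl2, a LIM-domain cofactor, fell by 0.24 on the log2 scale (adjusted p = 0.00144 in edgeR). Mrtfa did not pass (-0.04, 95% interval -0.15 to 0.07). Mrtfb passed narrowly (0.10, edgeR adjusted p = 0.0493), but in only 5 of 15 alternatives, over which its adjusted p ran from 0.0232 to 0.412. Myocd, the cardiac and smooth muscle cofactor, had 7, 6, 7 and 1 counts and was not tested.

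**Figure D4:**
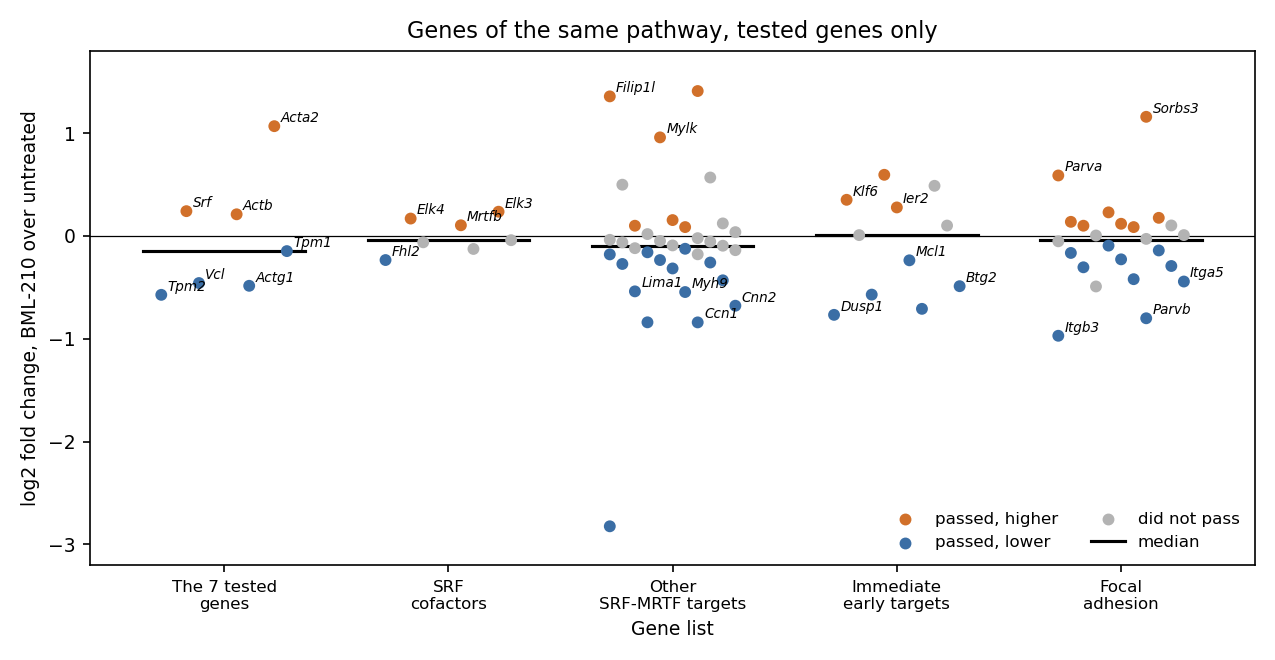
Log2 fold change (BML-210 over untreated) of the 7 tested genes and of each tested gene in 4 related lists, orange for genes that passed and were higher, blue for lower, grey for those that did not pass, with the median as a black line. Each of these holds genes on both sides of 0, and the medians lie between -0.15 and 0.01.

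Other actin-cytoskeleton genes known as SRF and MRTF targets split as well. Of 42 genes 35 were tested, and 6 were higher, 14 lower and 15 did not pass (57.1% called, median -0.10), a share between the 46.4% of all tested genes and the 64.8% of the more abundant ones, or 4 higher and 19 lower with upper-quartile scaling. The non-muscle myosin heavy chain gene Myh9 went from 1319 and 1339 to 919 and 901 CPM (-0.55, edgeR adjusted p = 2.84e-25). The matricellular gene Ccn1 went from 89.6 and 94.5 to 50.9 and 51.7 CPM (-0.84, edgeR adjusted p = 1.42e-19), and the actin-bundling gene Lima1 fell by 0.54 on the log2 scale. In the opposite direction, Filip1l rose from 6.39 and 6.77 to 17.6 and 16.1 CPM (1.36, edgeR adjusted p = 1.89e-12). The myosin light chain kinase gene Mylk rose from 8.46 and 10.3 to 17.9 and 18.4 CPM (0.96, edgeR adjusted p = 5.17e-09). Thbs1 had 1 count in all, in a library labelled untreated.

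The 11 tested immediate early genes that answer to SRF and ternary complex factors also split, with 3 higher and 5 lower (72.7% called, median 0.01), beside 46.4% of all tested genes and 64.8% of the more abundant ones. The phosphatase gene Dusp1 went from 111 and 109 to 60.9 and 68.1 CPM (-0.77, edgeR adjusted p = 5.67e-19), and the survival gene Mcl1 fell by 0.24 on the log2 scale. Klf6 rose by 0.35 (edgeR adjusted p = 2.57e-12). Ier2 (0.28) and Btg2 (-0.49) passed, but neither did without untreated replicate 1, without BML-210 replicate 1 or with DESeq2 (adjusted p up to 0.254 for Ier2 and 0.233 for Btg2, and as low as 0.00501 and 0.000146 over 15 alternatives). The count of immediate early genes called was 4 without either of these libraries and 3 with DESeq2, against 8. Egr2 had 0 counts in all 4 libraries.

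Focal adhesion genes whose proteins work beside vinculin went both ways. Of 24, all tested, 10 were lower and 8 higher (75.0% called, median -0.04), beside 46.4% of all tested genes and 64.8% of those at or above the level of Acta2, or 10 lower and 5 higher with upper-quartile scaling. Parvb, an actin-binding parvin, went from 354 and 358 to 202 and 206 CPM (-0.80, edgeR adjusted p = 1.69e-28). Parva, its paralog, rose from 48.1 and 45.1 to 68.3 and 72.0 CPM (0.59, edgeR adjusted p = 2.37e-12). The integrin genes Itgb3 (-0.97) and Itga5 (-0.44) fell with edgeR adjusted p of 4.60e-23 and 1.37e-16. Sorbs3, which encodes the vinculin-binding adaptor vinexin, rose from 17.2 and 22.9 to 44.9 and 43.7 CPM (1.16, edgeR adjusted p = 5.76e-17).

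Markers of cells in which Acta2 and its companions are abundant were measured beside these results. Of 13 smooth muscle and pericyte genes 8 were tested, 4 were lower and 1 higher (62.5% called, against 46.4% of all tested genes). With a filter on a mean of at least 1 CPM, only 3 were called, 2 lower and 1 higher. The summed level was 89.6 and 91.2 CPM untreated and 100.4 and 102.2 CPM with BML-210, most of it Pdgfrb (54.2 and 55.6 against 81.4 and 81.1 CPM). The defining smooth muscle myosin gene Myh11 had 1 count in 1 library of each group and 0 in the others. Mcam, Synpo2 and Rgs5 fell (edgeR adjusted p = 2.19e-11, 7.40e-06 and 2.73e-05), Rgs5 from 18 and 17 counts to 0 and 2. Casq2 had 2 and 4 counts in the libraries labelled untreated and none in those labelled BML-210. None of the 6 myoepithelial genes had enough counts to be tested, and their summed level was 0.908 to 1.34 CPM. Among them, Krt5 had 2 and 6 counts untreated and none with BML-210. Of 8 fibroblast genes only 3 were tested, and these passed (100% called, against 46.4% of all tested genes). On the log2 scale Pdgfra fell by 0.68, and Pdgfrb, which is also in the pericyte list, rose by 0.57. Col3a1 rose by 1.55 at low level, from 18 and 16 counts to 56 and 34. The fibroblast list summed to 211 and 215 CPM untreated against 180.1 and 184.8 CPM with BML-210. Lum had no count in any library. The part of these cell types in the results was not tested.

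Further values of the whole series bear on the labels and on RNA quality. The tissue is labelled breast, yet of 8 epithelial markers only Krt8 (43.6 and 49.2 against 28.3 and 33.0 CPM) was above 1 CPM, Epcam had 1 to 3 counts in a library, and Krt18 had 1 and 2 counts untreated and 0 with BML-210. Of the 2 epithelial genes tested 1 was lower, and of 4 tested macrophage and leukocyte genes 2 were lower, both shares (50%) being near the 46.4% of all tested genes. Without untreated replicate 1, the macrophage and leukocyte count was 1. The latter list summed to 167 and 171 CPM untreated and 35.7 and 34.7 CPM with BML-210, nearly all Cd68, while Ptprc was below 1 CPM and C1qc at 0. Mitochondrial genes held 5.05% to 5.57% of counts, and the nuclear RNAs went both ways: Malat1 was at 16926 and 16571 CPM untreated and 11224 and 11216 CPM with BML-210, and Neat1 at 2294.5 and 2301.4 against 2593.5 and 2613.7 CPM. Their part in the results was not tested. Total counts were 13167893 to 16534667 per library.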

How the data were processed

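RNA of 4 libraries (2 labelled untreated, 2 labelled BML-210) was sequenced as total RNA. The authors deposited raw counts per gene with exonic length, per the file headers; the submitters' processing notes name STAR 2.5, featureCounts (Subread 1.5.1) and edgeR 3.20.8, and build mm10. No source used here gives the strand and multi-mapping settings or the annotation release.

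Columns were matched by library name. Genes passing filterByExpr (14455 of 56350) were scaled by TMM and compared in R 4.3.3 with edgeR 4.0.16 (glmQLFit robust, glmQLFTest, group alone, 2 residual degrees of freedom). Calls are at a Benjamini-Hochberg adjusted p below 0.05, over every tested gene. SE is the log2 fold change over the square root of F, an approximation. The filter keeps genes high in either group. Replicate counts differed beyond sampling noise (chi-square over degrees of freedom 2.70 untreated, 1.76 BML-210), so none were merged. The steps were tested on simulated data.

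The genes and lists were chosen with earlier results of these data known, so no list carries its own p. Named genes are all 10, and per other list up to 4 with the smallest adjusted p, up to 2 against its majority, and those at 0 in a group; some of these, and 1 list, are not reported here. Tpm3, Tpm4, Cnn3, Tagln2, Myl12a, Mrtfa, Myocd, Actg2, Acta1, Myh11, Ap3m1, Epcam, Ptprc, Elk1, Malat1 and Neat1 were named after their values were seen. Alternatives were scaling by RLE, by upper quartile or by library size alone, scaling without genes over 1% of a library, other filters, the replicate block, each library left out, DESeq2 1.42.0, limma-voom 3.58.1, the likelihood ratio test and a non-robust fit.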

Additional observations from a re-analysis of the deposited data

How the results depend on the processing

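All 7 tested genes kept their direction and their call under each of the 15 alternatives. The sum of Actg1 with its pseudogenes also kept both, but the pseudogenes add too few counts to put Actg1 to a test. The log2 fold changes ran from 0.99 to 1.14 for Acta2, 0.21 to 0.27 for Srf, 0.18 to 0.23 for Actb, -0.51 to -0.47 for Actg1, -0.49 to -0.44 for Vcl, -0.66 to -0.49 for Tpm2 and -0.18 to -0.13 for Tpm1. The highest adjusted p were those of Tpm1 (0.0256) and Srf (0.0102), both without BML-210 replicate 2. Over all genes 6714 were called, 4669 with DESeq2 and 5618 to 5869 with a library left out, where the lone library of a group is assumed to vary like the other group. With the replicate number as a block, 6847 genes and all 7 were called. Deviations of same-numbered libraries correlated at 0.011, and the labels do not say that a number marks a shared culture or day. The share of each tropomyosin depends on division by exonic length: without it Tpm1 held 19.8% and Tpm2 5.30% of the untreated sum, against 18.0% and 3.59% with BML-210. Of the counts of the other lists, 7 moved by over 1.5 times and 128 did not. At this depth Tagln, Cnn1 and Myl9 have too few counts for a statement on change, and for Tagln the part of the exon overlap was not tested.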

Other observations

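Further genes whose products act on actin were chosen after their values were seen. Tmsb4x, which encodes an abundant actin-monomer binding peptide, was at 38.8 and 38.4 CPM in the libraries labelled untreated and at 15.1 and 19.4 CPM in those labelled BML-210 (log2 fold change -1.16, edgeR adjusted p = 3.69e-16). Whether its reads are shared with other genes was not checked. The profilin gene Pfn1, whose product delivers actin monomers to growing filaments, rose by 0.22 on the log2 scale (adjusted p = 8.55e-10 in edgeR). The alpha-actinin gene Actn4 fell from 395 and 410 to 325 and 321 CPM (edgeR adjusted p = 7.50e-13). Flna, the filamin gene, was at 2219 and 2233 CPM untreated and at 2158 and 2177 CPM with BML-210 and did not pass, with a 95% interval of the log2 fold change of -0.09 to 0.01. At low level, Tgfb1i1 rose by 1.41 on the log2 scale, from 20 and 17 counts to 46 and 43, while the leiomodin gene Lmod1 went from 18 and 15 counts to 3 and 1. The smooth muscle LIM protein gene Csrp2 fell from a mean of 10.1 to 5.62 CPM (edgeR adjusted p = 2.27e-05).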
